A study of Mus musculus with 33 samples.

Results

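Binding of p53 before activation was compared between untreated lymphomas with wild-type p53 and lymphomas whose p53 was left without its activating ligand. The comparison took 7 of the 26 p53 peak lists of the series, 3 from untreated Arf tumours and 4 from ethanol-treated KI tumours, chosen by the tumour number and treatment in the titles. The series has 33 samples, 26 p53 immunoprecipitates and 7 input libraries, and the inputs were not used here. Each list came from a chromatin immunoprecipitation with the CM5p antibody against p53, followed by sequencing.

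The untreated tumours, numbered 5 to 7 and called NT, were Eµ-myc lymphomas that lacked both copies of Arf and kept both wild-type copies of Trp53, the gene of p53. The ethanol-treated tumours, numbered 1 to 4 and called EtOH, were Eµ-myc lymphomas that carried one knock-in copy of Trp53 (KI) and a deletion in place of the other, given 1 volume of ethanol per 1000 for 2 h. No time in culture is given for NT cells. All samples were B cells from lymph nodes of C57/Bl6 mice, pressed to single cells without further purification, so other cells of the node may be present. Peak lists hold no expression, so the cell type could not be checked against its markers. Genotype, solvent and time differ together between NT and EtOH and cannot be told apart. The labels give 1 list for each numbered tumour in each state and do not say how the tumours relate to single mice, so p-values measure the spread between these lists.

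p53 is a transcription factor that binds DNA as a tetramer and activates genes for cell cycle arrest, apoptosis and repair. Mdm2 binds p53, blocks it and marks it for degradation, and Arf inhibits Mdm2 when Myc is overactive. Eµ-myc mice express Myc in B cells from an immunoglobulin enhancer and develop B cell lymphomas. The KI allele encodes p53 fused to a modified oestrogen receptor domain, which needs 4-hydroxytamoxifen (OHT) to function. NT tumours thus hold a wild-type p53 that is under Mdm2 control without Arf, and EtOH tumours a fusion protein without its ligand.

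Both kinds of tumour had p53 peaks before activation, and NT lists were longer on average without passing the test. NT lists held 2696, 2180 and 742 peaks in tumours 5, 6 and 7. EtOH lists held 116, 186, 742 and 367 peaks in tumours 1, 2, 3 and 4. The groups overlapped, because the shortest NT list and the longest EtOH list had the same number. The log2 ratio of peak numbers, NT over EtOH, was 2.56 with a standard error of 0.82. Its two-sided p by exact permutation over the 35 ways to label 3 and 4 lists was 0.0857, where 0.0286 is the smallest possible. How deeply each library was sequenced is unknown, and a difference in sensitivity cannot be told apart from one in binding.

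In covered length the groups did not overlap. NT peaks covered 1438, 432 and 148 kb in tumours 5, 6 and 7, against 23.1, 15.0, 68.6 and 32.7 kb in EtOH tumours 1 to 4. The log2 ratio of covered length was 3.92 (exact permutation p = 0.0286, as small as these lists allow). Peaks of at least 200 bp numbered 2696, 565 and 205 in NT lists, against 32, 5, 30 and 15 in EtOH lists, again without overlap and with an exact permutation p of 0.0286.

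The list of NT tumour 5 was of another kind than the other 6. Its smallest peak was 304 bp wide and its median 418 bp, while medians were 96 and 100.5 bp in NT tumours 6 and 7 and 68 to 105.5 bp in EtOH lists. In the 6 narrow lists the smallest peaks were 52 or 53 bp. Narrow lists split sites into several peaks, with 1.44 and 1.61 peaks per site in NT tumours 6 and 7 when peaks within 500 bp were joined, 1.11 to 1.49 in EtOH lists, and 1.01 in NT tumour 5. Counted as such sites, lists held 2669, 1514 and 461 in NT tumours 5 to 7, against 78, 167, 626 and 312 in EtOH tumours 1 to 4, so that the groups overlapped as they did for peaks. Without NT tumour 5 NT lists were 4.59-fold longer by geometric means (exact permutation p = 0.2, smallest possible 0.0667). NT tumours 6 and 7, narrow lists like all EtOH lists, each had more peaks of at least 200 bp than any EtOH list.

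**Figure D1:**
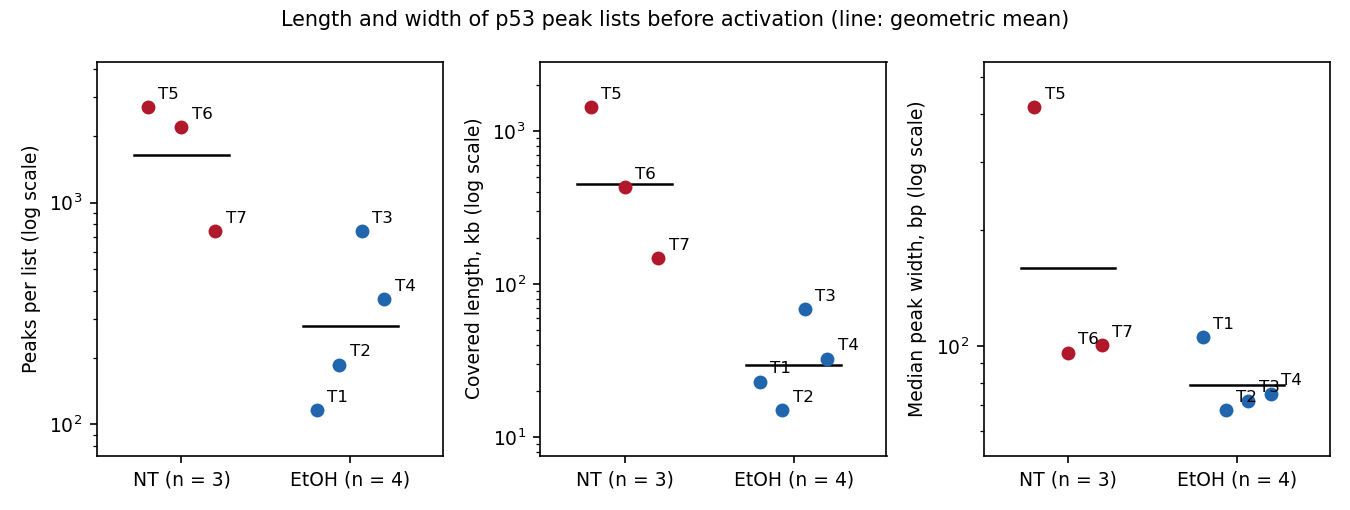
Number of peaks, covered length in kb and median peak width in bp (all on log axes) of the 3 NT and 4 EtOH lists; each point is 1 list with its tumour number, and the line is the geometric mean. The groups overlap in peak number, where NT tumour 7 and EtOH tumour 3 both have 742, but not in covered length, and the median width of NT tumour 5 (418 bp) stands apart.

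Peaks of the 7 lists that shared at least 1 bp were merged into 3639 regions. Of these, 3184 had a peak in some NT list and 973 in some EtOH list, and 518 had both. Seen from the EtOH side, 53.2% of its regions also had an NT peak, and seen from the NT side, 16.3% also had an EtOH peak. In all, 398 regions were in each of the 3 NT lists and 10 in each of the 4 EtOH lists. These counts depend on the number of lists and on the shortest one: without NT tumour 7 the first became 1133, and without EtOH tumour 1 the second became 40.

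A set of 336 regions had a peak in each NT list and in no EtOH list, which is 9.23% of the 3639. The opposite pattern, every EtOH list and no NT list, was found for 0 regions (0%), but with 10 regions common to the EtOH lists it could not have been frequent. Testing presence region by region with Fisher's exact test called 0 (0%), and the lowest p after Benjamini-Hochberg adjustment across the 3639 regions was 0.309. An unadjusted p under 0.05 was reached by the 336 regions alone, each at 0.0286, the smallest value that 3 against 4 lists allow. To pass adjustment at that p, most of the 3639 regions would have to show such a pattern. With 469 regions in NT tumour 7 and 75 in EtOH tumour 1 this was impossible, so the test could not call any region. The count depends on the shortest NT list, since it became 936 without NT tumour 7. Without NT tumour 5 it was 424, and without EtOH tumour 1 it was 367.

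The shorter NT lists lay largely within the longer ones. Of the 469 regions of NT tumour 7, 84.9% were in each NT list (95% Clopper-Pearson interval 81.3% to 88.0%), and 88.5% were in tumour 5 and 87.0% in tumour 6. Of the 1577 regions of tumour 6, 71.8% were also in tumour 5 and 25.9% in tumour 7. Tumour 5 had 2696 regions, of which 57.3% were in no other NT list. Tumours 5 and 6 shared a further 600 regions that neither tumour 7 nor any EtOH list had. Such intervals cover counting error only, and regions of one list are not replicates.

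Sites that recurred between NT tumours were wide. In NT tumour 5, peaks also called in both other NT tumours had a median width of 937 bp, those called in 1 of them 509 bp, and those in neither 362 bp. In NT tumour 6 the same order held, with 366.5, 91 and 67 bp. In NT tumour 7 it was 111, 65 and 69.5 bp, so that peaks shared with both other tumours were again the widest, while the other kinds lay close together. A wider peak has more room to be overlapped, and how far this adds to the order was not tested.

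The regions found in each NT list and no EtOH list were ranked by the mean percentile of peak width within the NT lists, since the lists hold no score or height. First came a region at chr12:111962209-111964427 (mm9, as all positions here), with widest peaks of 2219, 1319 and 1229 bp in NT tumours 5, 6 and 7. Next was one at chr1:9627948-9630085, with 2138, 1452 and 1194 bp. The third, at chr3:32262099-32264964, had 2866, 1568 and 934 bp. Their mean width percentiles were 99.3, 99.2 and 99.2, and all 3 had a peak in each of the 4 OHT, 3 doxorubicin and 3 (-)-Nutlin lists of the series. A peak in each of those 10 lists was also found for 51.2% of the 336 regions and 23.7% of all 3639.

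The next 6 regions by this measure lay at chr2:127958885-127960935, chr17:29226781-29229120, chr8:26240877-26242586, chr8:23544343-23545879, chr7:53506341-53507931 and chr7:53856460-53858228. Each of these was called in 22 of the 26 lists, the 4 EtOH lists being the ones without it. The region on chromosome 17 had widest peaks of 2340, 1073 and 932 bp in NT tumours 5, 6 and 7. The tenth, at chr4:148859975-148861496, was called in 21 lists and lacked a peak in 1 of the 4 OHT lists besides the EtOH lists. After OHT, 9 of the 10 thus had a peak in each KI tumour. In single OHT lists 51.8% to 95.2% of the 336 regions and 47.4% to 73.2% of all 3639 had a peak. The 10 were picked for wide peaks, and the share of all regions in each OHT list was not counted. No annotation of build mm9 was used here, so regions carry no gene names, and their sequences were not analysed.

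A small set of regions was called in all 7 lists. These 9 regions also had a peak in each of the other 19 lists. The one with the highest mean width percentile, 99.7, lay at chr1:156902218-156905291, with 1 peak in each of the 7 lists. Its width was 3074, 1926 and 1844 bp in NT tumours 5, 6 and 7, against 1010, 596, 767 and 747 bp in EtOH tumours 1 to 4, so NT peaks were longer in each list. At chr7:16893282-16895528, the widest peaks were 2247, 1807 and 1284 bp in NT lists, against 1022, 154, 755 and 141 bp in EtOH lists. At chr2:75605383-75607043, they were 1626, 1294 and 1221 bp in NT lists, against 828, 107, 690 and 99 bp in EtOH lists. In these regions too, NT and EtOH did not overlap in width, and EtOH tumours 1 and 3 had longer peaks than EtOH tumours 2 and 4.

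Further common regions lay at chr8:4610857-4613371, chr8:124356121-124357029, chr19:44328068-44329647, chr11:6425970-6428938 and chr11:108872888-108873563. At chr11:108872888-108873563, NT widths of 676, 389 and 131 bp overlapped EtOH widths of 140, 135, 370 and 258 bp. The region at chr17:39979822-39985896 was unlike the others. A single peak of 6075 bp spanned it in NT tumour 5, and it broke into 10 and 9 peaks in NT tumours 6 and 7, and into 9, 7, 14 and 19 peaks in EtOH tumours 1 to 4. Repeats and high-background stretches were not filtered out, and whether this one is a p53 site was not tested. The tenth region in each EtOH list lay at chr16:57391452-57392004, had peaks of 553 and 172 bp in NT tumours 5 and 6, and none in NT tumour 7. It had a peak in 1 of the 4 OHT lists, and it was named after its values were seen.

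Whether lists of one kind of tumour resembled each other more than lists of different kinds was tested on pairs of lists, and the test did not pass. The Jaccard index, the number of regions in both lists over the number in either, was 0.361 for NT tumours 5 and 6, 0.249 for 6 and 7, and 0.151 for 5 and 7. Between EtOH lists it was 0.042 to 0.144, and between an NT and an EtOH list 0.023 to 0.115. The mean within groups exceeded that between groups by 0.091 (exact permutation p = 0.0571, smallest possible 0.0286). Over base pairs in place of regions the difference was 0.099 (exact permutation p = 0.0286). With the overlap coefficient, which divides by the shorter list, it was 0.066 (exact permutation p = 0.457). The mean coefficient was 0.824 within NT, 0.335 within EtOH and 0.432 between them. The order of the last 2 means did not hold for each EtOH list. EtOH tumour 1 shared 22.7%, 38.7% and 24.0% of its regions with EtOH tumours 2, 3 and 4. With NT tumours 5, 6 and 7 it shared 84.0%, 85.3% and 74.7%. EtOH tumour 2 shared 43.1% and 34.7% with EtOH tumours 3 and 4, against 59.3%, 35.9% and 11.4% with NT tumours 5, 6 and 7. The index depends on list length, which ran here from 116 to 2696 peaks.

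**Figure D2:**
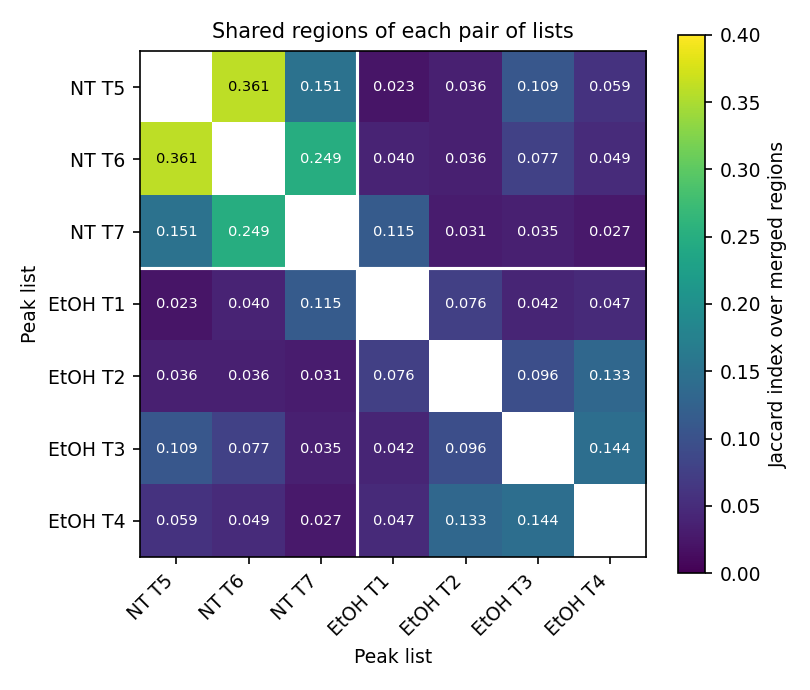
Jaccard index over merged regions for each pair of the 7 lists; white lines separate NT from EtOH. The NT block reaches 0.361, the EtOH block stays at or below 0.144, and outside the blocks EtOH tumour 1 with NT tumour 7 (0.115) and EtOH tumour 3 with NT tumour 5 (0.109) are highest.

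EtOH tumour 1 stood apart from the other EtOH tumours in which sites it held. Of its 75 regions, 72.0% were in each NT list (95% Clopper-Pearson interval 60.4% to 81.8%). The share was 10.2% of 167 regions in EtOH tumour 2, 4.14% of 652 in tumour 3 and 4.91% of 326 in tumour 4. Its Jaccard index with NT tumour 7 was 0.115, above its indices of 0.076, 0.042 and 0.047 with EtOH tumours 2, 3 and 4. Of the 36 regions called in each NT list and in a single EtOH list, 31 had that peak in EtOH tumour 1. This list is the shortest of the 7, and 27.6% of its peaks reached 200 bp, against 2.69% to 4.09% in the other EtOH lists.

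EtOH tumours 2 to 4 had a different makeup. Between 35.9% and 44.5% of their regions had no NT peak, and 31.7% to 34.97% had a peak in 1 NT list. NT tumour 5 held 59.3%, 50.6% and 51.5% of the regions of EtOH tumours 2, 3 and 4. NT tumour 6 held 35.9%, 24.4% and 27.3% of them, and NT tumour 7 held 11.4%, 5.83% and 6.44%. For EtOH tumour 1 the shares in NT tumours 5, 6 and 7 were 84.0%, 85.3% and 74.7%. NT tumour 5 has the most and the widest peaks, and how far this sets its share was not tested.

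**Figure D3:**
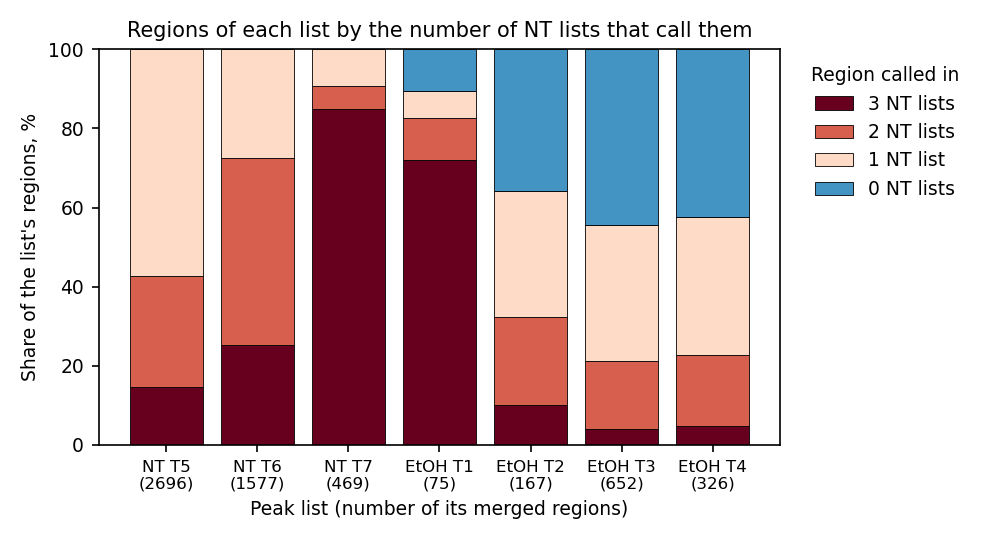
Share of each list's merged regions, in percent, by the number of NT lists that call the region; the number of regions stands under each list. Dark segments, regions in all 3 NT lists, fill 84.9% of NT tumour 7 and 72.0% of EtOH tumour 1, but at most 10.2% of the other EtOH lists.

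The width of the shared peaks, as measured in the NT lists, separated the EtOH tumours in the same way. Peaks of NT tumour 5 that EtOH tumour 1 shared had a median width of 1181 bp, at the median percentile of 96.3 within that list. Those shared with EtOH tumours 2, 3 and 4 had medians of 425, 375.5 and 400.5 bp, at percentiles 51.4, 38.9 and 45.7, where the median over all peaks of the list is 50.1. In NT tumour 6 the percentiles were 92.9 for EtOH tumour 1 and 53.1, 48.0 and 47.4 for EtOH tumours 2, 3 and 4. In NT tumour 7, whose list is short and nested in the others, they were 86.0, 93.3, 77.1 and 87.1 for EtOH tumours 1 to 4, so EtOH tumour 1 did not stand out there. These values describe single lists, and the causes were not tested.

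**Figure D4:**
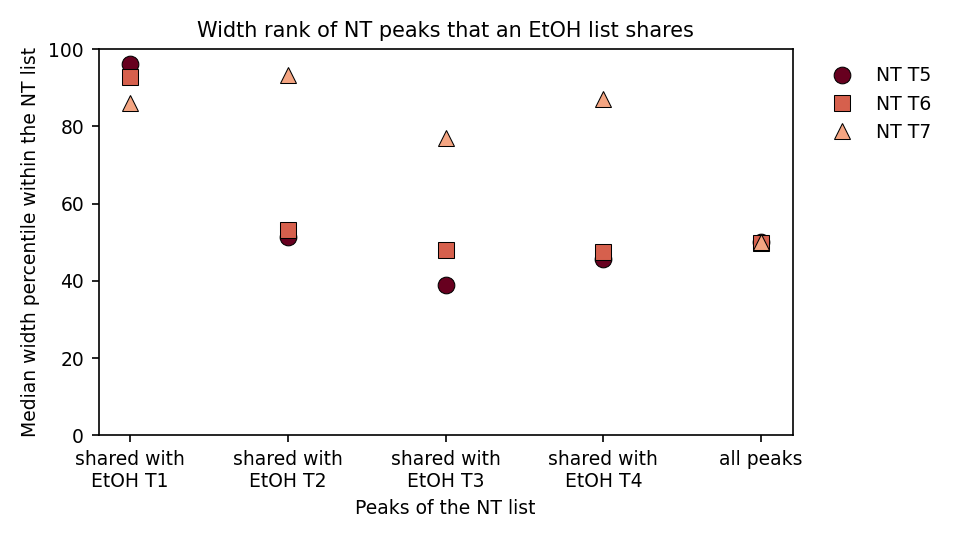
Median percentile of peak width, within each NT list, of the peaks that each EtOH list shares, with the median over all peaks of the list at the right; each symbol is 1 NT list. Peaks shared with EtOH tumour 1 are at 96.3 and 92.9 in NT tumours 5 and 6, while those shared with EtOH tumours 2 to 4 are between 38.9 and 53.1 there.

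Taking both directions together, 14.2% ± 3.1 (SD, n = 3) of the peaks of NT lists lay under a peak of some EtOH list, and 71.0% ± 15.1 (SD, n = 4) of the peaks of EtOH lists lay under a peak of some NT list. In single lists the shares were 17.2%, 11.1% and 14.4% for NT tumours 5, 6 and 7, and 93.1%, 67.7%, 60.9% and 62.1% for EtOH tumours 1 to 4. Without EtOH tumour 1 the shares became 11.04% for NT peaks and 63.6% ± 3.6 (SD, n = 3) for EtOH peaks. Without NT tumour 5 they became 12.7% for NT peaks and 42.9% ± 32.1 (SD, n = 4) for EtOH peaks. Single EtOH lists then ran from 21.7% to 90.5%.

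Regions called in EtOH lists and in no NT list numbered 455, or 12.5% of all regions, and 418 of them were in a single EtOH list. Without NT tumour 5, the list of wide peaks, the class grew to 866 of 3132 regions. EtOH tumour 3 alone held 258, tumour 4 alone 111, tumour 2 alone 43 and tumour 1 alone 6. The 4 that 3 EtOH lists shared were held by tumours 2, 3 and 4 in each case. They lay at chr8:20020317-20020584, chr8:72427203-72427332, at chr11:87256936-87257140, and at chr5:33721030-33721115. Peaks there were short, 56 to 268 bp. The region on chromosome 11, with peaks of 100, 113 and 87 bp, had no peak in any OHT list and was called in 5 of the 26 lists. The one on chromosome 5 and the one at chr8:72427203-72427332 had a peak in each of the 10 OHT, doxorubicin and (-)-Nutlin lists. Of the 455 regions 15.6% did so, and of all 3639 regions 23.7%.

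Regions shared by 3 EtOH lists and 1 NT list numbered 13. The leading 5 by width in EtOH lists lay at chr5:93635497-93635906, chr5:22892401-22893096, at chr3:96361563-96361964, at chr7:74517690-74518096, and at chr8:47085114-47085580. The NT list was tumour 5 and the EtOH lists were tumours 2, 3 and 4 in each of the 5. At chr5:93635497-93635906, the peak was 324 bp in NT tumour 5, and the widest was 112, 137 and 169 bp in EtOH tumours 2, 3 and 4. All 5 had a peak in each OHT, doxorubicin and (-)-Nutlin list, as had 23.7% of all 3639 regions.

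The 19 other p53 lists, which come from the same 7 tumours and did not enter the classes, were then read at these regions. They comprise 4 OHT lists (100 nM for 2 h) of KI tumours and, from Arf tumours after 3 h, 3 lists each of 1 µM doxorubicin, 5 µM (-)-Nutlin, 5 µM (+)-Nutlin, DMSO (0.5 volumes per 1000) and water. OHT activates the KI protein, doxorubicin damages DNA, and (-)-Nutlin is the form that keeps Mdm2 from p53, while (+)-Nutlin is its mirror image. OHT, doxorubicin and (-)-Nutlin lists are long and consist of wide peaks, which overlap any region more readily. The share over all 3639 regions is therefore given for comparison.

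The 336 regions of NT lists without an EtOH peak were found again in other unactivated Arf lists. They had a peak in 90.8% ± 8.2 of cases in (+)-Nutlin lists, 91.9% ± 6.4 in DMSO lists and 95.04% ± 4.8 in water lists (SD, n = 3 each). Over all 3639 regions the shares were 29.4%, 25.2% and 32.2%. The 455 regions of EtOH lists without an NT peak had lower shares there, with 7.40% ± 10.6 in (+)-Nutlin, 3.81% ± 5.3 in DMSO and 7.55% ± 8.5 in water lists (SD, n = 3 each). Most of these calls were in the wide lists of tumour 5, with 89, 45 and 78 of the 455 regions, against 2 to 21 in the lists of tumours 6 and 7. These classes differ in recurrence, as the first needs 3 lists and 418 regions of the second come from 1. The 1711 regions in 1 NT and no EtOH list, nearer to the second in this respect, had 15.7% ± 22.5 in (+)-Nutlin, 10.5% ± 14.7 in DMSO and 16.5% ± 20.2 in water lists (SD, n = 3 each). Low shares were thus also found for sites of a single NT list. The classes differ in region width too, and a wider region has more room to be overlapped. Median widths were 925 bp for the 336 regions, 335 bp for the 1711 and 67 bp for the 418. How far width sets these shares was not tested.

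After doxorubicin or (-)-Nutlin, the 455 EtOH regions were called in Arf tumours as well, but less often than all regions. The share with a peak was 89.2%, 40.7% and 79.8% in doxorubicin lists of tumours 5, 6 and 7, and 89.9%, 89.5% and 70.8% in (-)-Nutlin lists of the same tumours. Over all 3639 regions the means were 86.4% ± 10.2 in doxorubicin and 88.1% ± 7.0 in (-)-Nutlin lists (SD, n = 3 each). In the single lists of tumours 5, 6 and 7 they were 93.5%, 74.7% and 90.9% with doxorubicin and 93.1%, 91.2% and 80.0% with (-)-Nutlin, so the EtOH regions were below all regions in each of the 6 lists. Of the 455, 14 (3.08%) had no peak in any of the 10 activated lists, and 12 (2.64%) had no peak in any of the other 19 lists. Over all 3639 regions these counts were 66 (1.81%) and 35 (0.962%). Of the 336 NT regions, 0 lacked a peak in all 10, which allows a share of up to 0.893%, and 172 had a peak in each of the 10. That limit covers counting error only, and regions are not replicates.

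The KI tumours differed from each other in how these classes appeared after OHT, with tumour 1 highest for one class and lowest for the other. Of the 455 EtOH regions, OHT lists of tumours 1, 2, 3 and 4 called 40.9%, 51.2%, 92.5% and 93.0%. The 336 NT regions had a peak in 95.2% of cases in tumour 1 and 51.8% in tumour 4, with tumours 2 and 3 between at 71.7% and 78.3%. Over all regions OHT lists had 60.5% ± 10.8 (SD, n = 4), with 58.0%, 47.4%, 73.2% and 63.6% in tumours 1, 2, 3 and 4. OHT lists of tumours 1, 2, 3 and 4 held 4102, 3597, 10084 and 9738 peaks, and the part of list length in these shares was not tested. EtOH tumours 3 and 4 also contributed most of the 455 regions.

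Width ranks within the activated lists were compared next. In OHT lists of tumours 1, 2, 3 and 4, peaks at the 336 NT regions had median percentiles of 88.3, 82.8, 85.4 and 48.5 by width, and peaks at the 455 EtOH regions 38.4, 51.0, 74.6 and 77.6. Over all regions the percentiles in these lists were 61.6, 61.7, 73.3 and 73.9. In tumour 4 alone the EtOH regions had wider peaks than the NT regions. In doxorubicin lists the NT regions were at 97.0, 96.0 and 97.1 in tumours 5, 6 and 7 and the EtOH regions at 65.1, 30.6 and 52.2, against 78.4, 78.5 and 76.5 over all regions. In (-)-Nutlin lists the NT regions were at 96.8, 96.5 and 94.8 and the EtOH regions at 67.5, 71.6 and 50.1, against 78.3, 77.5 and 68.7 over all regions. The 336 regions, chosen for recurrence, had the wider peaks in each of the 6 lists. The widest peak touching a region was taken, and the regions themselves differed in width. Their median was 925 bp for the 336, against 67 bp for the 418 regions of a single EtOH list. How far this adds to the difference in ranks was not tested. The 1711 regions of 1 NT and no EtOH list were at 71.1, 71.1 and 69.4 in doxorubicin lists of tumours 5, 6 and 7 and at 70.3, 69.1 and 58.7 in (-)-Nutlin lists. In the (-)-Nutlin list of tumour 6 the EtOH regions were thus above those of a single NT list, and in the other 5 lists below them. Regions of NT lists were called in the same Arf tumours as these lists, so the readout is not independent of the tumours.

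Most of the 62 regions in each NT list and some EtOH list were called in each activated list. They had a peak in 93.1% ± 4.0 of cases in OHT lists (SD, n = 4) and in 98.4% ± 1.6 and 98.9% ± 0.9 in doxorubicin and (-)-Nutlin lists (SD, n = 3 each), where the 336 NT regions had one in 100% of cases. Over all regions the means were 60.5% in OHT, 86.4% in doxorubicin and 88.1% in (-)-Nutlin lists. Of the 62, 85.5% had a peak in each of the 10 activated lists, against 51.2% of the 336 NT regions, 15.6% of the 455 EtOH regions and 23.7% of all regions. Peaks at the 62 regions were at a mean percentile of 97.3 by width in OHT lists, 98.4 in doxorubicin lists and 98.0 in (-)-Nutlin lists. Over all regions these means were 67.6, 77.8 and 74.8. EtOH tumour 1 had a peak in 54 of the 62.

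**Figure D5:**
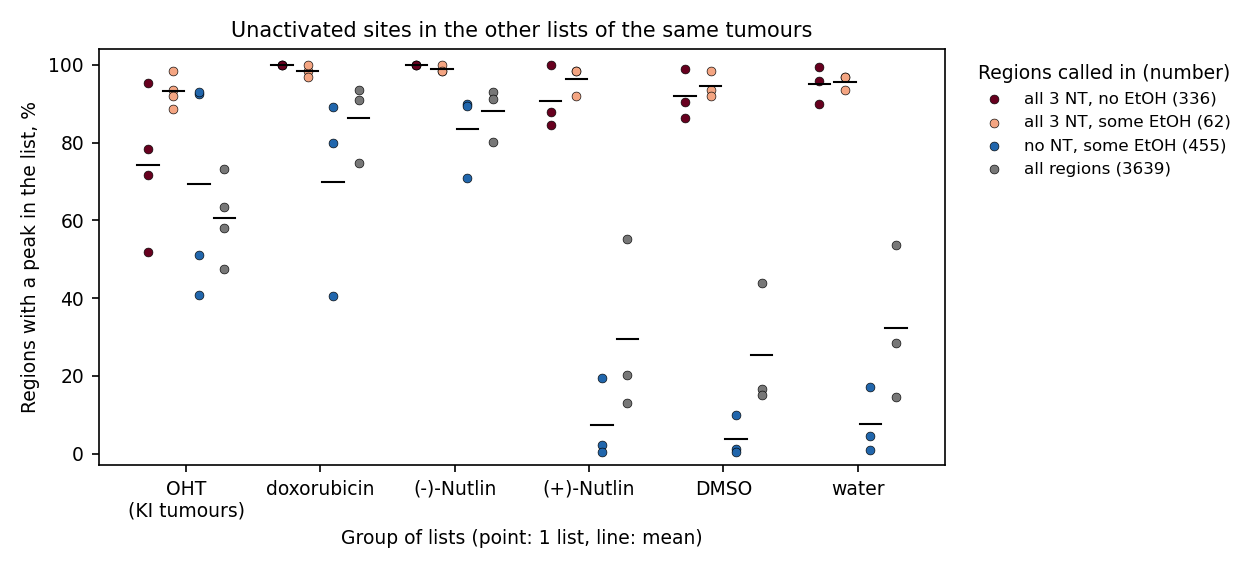
Percent of regions with a peak in each of the 19 other p53 lists, for regions in all 3 NT and no EtOH list (336), in all 3 NT and some EtOH list (62), in no NT and some EtOH list (455) and all regions (3639); each point is 1 list and the line is the group mean. In (+)-Nutlin, DMSO and water lists the 336 NT regions lie at 84.5% or more and the 455 EtOH regions at 19.6% or less, while the OHT lists spread from 40.9% to 93.0% for the EtOH regions.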

How the data were processed

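The authors' deposited peak lists give only positions in base pairs (3 columns), and neither a score nor a height. BWA 0.6.2, SAMtools and build mm9 are named in the submitters' processing notes. Not given in the sources used here were the peak caller, its threshold, the use of inputs and the read depth. Per the labels' protocols, chromatin fragments averaged 250 bp. Starts were counted from 1 for printing. Groups came from sample titles.

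Lists were processed with Python 3.11.15, numpy 2.4.6, pandas 2.3.3 and scipy 1.17.1, and the code was tested on simulated lists. Peaks of the 7 lists sharing at least 1 bp were merged into regions. For numbers and lengths, the absolute difference of mean log2 values was tested by exact permutation (two-sided). Presence per region was tested by Fisher's exact test, called at an adjusted p under 0.05 (Benjamini-Hochberg). Shares have exact Clopper-Pearson intervals of 95% or SDs over lists. Regions were named by pattern (in all 7 lists, in 3 NT and no EtOH list, in at least 3 EtOH and 0 or 1 NT list) and ranked by mean width percentile; their target genes and B cell markers were not looked up, for want of an mm9 annotation and of expression values. Alternatives changed the merging, minimum width, overlap and lists included. Members and lists were chosen with earlier results of these data known.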

Additional observations from a re-analysis of the deposited data

Results flagged for a closer look

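Groups of 4 lists were checked for a list far from the others, by the gap to the nearest list over the whole range. Of 20 checks, 2 were on OHT lists and the rest on EtOH lists. In 5 of them EtOH tumour 1 was that far out, and in the others no list was. Chance alone gives about 1 in 20 groups, and the checks share their peaks, so these are not separate findings. The share of peaks of at least 200 bp was 27.6% in EtOH tumour 1 and 2.69% to 4.09% in the other EtOH lists. The share of its regions in all 3 NT lists was 72.0%, against 4.14% to 10.2%. The share in 1 NT list was 6.67%, against 31.7% to 34.97%. Its Jaccard index with NT tumour 7 was 0.115, against 0.027 to 0.035. The peaks of NT tumour 6 that it shared had a median width percentile of 92.9, against 47.4 to 53.1. With 116 peaks the list is short, and the part of list length in these values was not tested.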

How the results depend on the processing

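Of 91 alternative values, 73 kept their direction and their side of the threshold or stayed within the spread, 4 passed the threshold that the reported value missed, 14 moved further and 0 reversed. The 73 include values whose side of the threshold was fixed in advance. With a list left out, the smallest possible exact permutation p was 0.05 or 0.0667 for peak numbers and Jaccard index, so no such value could pass. The values of Fisher's exact test could not pass either. The log2 ratio of peak numbers was 3.92 over covered base pairs and 5.37 among peaks of at least 200 bp (exact permutation p = 0.0286 for each), and 2.14 to 3.13 with a list left out. The difference in Jaccard index was 0.0989 over base pairs and 0.0922 with peaks of 200 bp around the midpoint (exact permutation p = 0.0286 for each). With the overlap coefficient it was 0.0656 (exact permutation p = 0.457), and with a list left out 0.0438 to 0.138. The 336 NT regions became 142 among peaks of at least 200 bp, 1080 when 1 list in each group was allowed to deviate, and 29 with every list cut to the 116 peaks of the shortest, and were 337 to 936 with a list left out. The opposite count of 0 became 17 when 1 list in each group was allowed to deviate, 1 with lists cut to the shortest, and 0 to 4 with a list left out. Fisher's exact test called 0 regions under each setting run for it, also at an adjusted p under 0.1. The lists were too few and too short for it to call any, so these values do not bear on stability. The share of NT peaks under EtOH peaks became 6.48% when 50% of the peak had to be covered and 8.50% among peaks of at least 200 bp, and that of EtOH peaks under NT peaks 95.8% among peaks of at least 200 bp. Without EtOH tumour 1 or NT tumour 5, chosen after seeing the data, these shares were 11.04% to 12.7% and 42.9% to 63.6%. The 42.9%, found without NT tumour 5, is a mean over EtOH lists that ran from 21.7% to 90.5%. The 336 NT regions had a peak in 100% of cases in doxorubicin and (-)-Nutlin lists, 96.4% with peaks of 200 bp around the midpoint and 99.3% to 100% with EtOH tumour 1 or NT tumour 5 left out. The causes of these shifts were not tested, beyond the fewer peaks or lists that a setting leaves. NT peaks with an EtOH counterpart had a median width percentile above that of the others by 8.79 on average, with a spread between tumours of 24.2 (SD, n = 3), so no direction was given. No paired analysis was possible because NT and EtOH lists share no tumour number.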

Other observations

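Chromosome 5 held an uneven share of EtOH sites. Counted as sites joined within 500 bp, 6.97%, 6.67% and 6.72% of the sites of NT tumours 5, 6 and 7 lay there, against 14.1%, 6.59%, 15.0% and 14.4% of those of EtOH tumours 1, 2, 3 and 4. EtOH tumour 2 was thus slightly below the NT lists, and the other EtOH lists were above them. In OHT lists of tumours 1, 2, 3 and 4 the share was 10.1%, 5.96%, 8.51% and 7.88%. Among the 455 regions with an EtOH and no NT peak it was 16.3%, and among the 336 with the opposite pattern 6.25%. Over all merged regions the share on this chromosome was 7.78%. The pattern was noticed in these data and carries no test.

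Distances to the nearest peak of any list of the other kind were also counted, with no value over all regions to set beside them. Of the 455 EtOH regions, 50 had an NT peak within 200 bp and 70 within 1000 bp, or 15.4%. Of the 336 NT regions, 0 had an EtOH peak within 1000 bp, which allows a share of up to 0.893%, and 4 had one within 5000 bp. That limit covers counting error only, and regions are not replicates. By definition neither class overlaps a peak of the other kind. EtOH lists are also short, with 116 to 742 peaks, and the part of list length in these counts was not tested.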
